A study of Homo sapiens and Mus musculus with 24 samples.

Results

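Clustered histone genes were examined in MCF10A, an established, non-tumorigenic line of human breast epithelium. Members were the genes whose symbol begins with HIST1H, HIST2H, HIST3H or HIST4H and that have at least 1 protein-coding transcript in the deposited tables. This gave 70 of 58434 gene identifiers, made up of 6 genes for H1, 17 for H2A, 18 for H2B, 14 for H3 and 15 for H4. A further 18 symbols of that pattern had no protein-coding transcript and were left out. Clusters were assigned by symbol. On GRCh38, 55 HIST1 members lie on chromosome 6, 11 HIST2 and 3 HIST3 members on chromosome 1, and 1, HIST4H4, on chromosome 12. HIST2H3PS2 starts at position 143905556 of chromosome 1, while the other HIST2 members lie between 149782689 and 149887916.

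The libraries form 4 groups of 3. H1047R cells carry 1 knocked-in copy of PIK3CA H1047R, which encodes an overactive form of the kinase PI3K alpha, and received BYL719 (alpelisib, an inhibitor of PI3K alpha) at 1 uM or the solvent DMSO for 4 h. Parental cells, labelled wild type, received the same 2 treatments. Each genotype is a single commercial line, so that clone and genotype cannot be told apart. The labels do not say whether the 3 libraries of a group are separate cultures, so p-values measure the spread between these libraries, which may be technical.

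Histones H2A, H2B, H3 and H4 form the core particle around which DNA is wound, and H1, the linker histone, binds where DNA enters and leaves it. Most of the clustered genes are replication-dependent: they are switched on in S phase under the coactivator NPAT. The mRNAs of these genes normally end in a stem-loop, bound by SLBP, in place of a poly(A) tail. Some clustered genes also make longer, polyadenylated transcripts, which are best known from cells that have left the cell cycle. A method that selects poly(A) RNA would see mainly such longer forms; the RNA selection is not given in the sources used. In bulk RNA, a larger share of cells in S phase and more histone RNA per cell cannot be told apart.

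The stem-loop and the poly(A) signal of the longer forms are shown because the stem-loop was used to sort the transcripts and the poly(A) signal closes the longer forms printed. Of the 97 annotated member transcripts, 96 were found in GENCODE 29 by versioned identifier. Transcripts were sorted by the histone stem-loop consensus of 16 bases, found in 0.269% of 83048 protein-coding transcripts of other genes. Each line gives the stem-loop in capitals with its neighbouring bases, 5′ to 3′, as DNA letters.

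HIST1H2AC stem-loop: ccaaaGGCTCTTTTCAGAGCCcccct

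HIST2H2BE stem-loop: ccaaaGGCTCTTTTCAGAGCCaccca

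HIST1H3G stem-loop: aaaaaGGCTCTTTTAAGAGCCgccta

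HIST2H4A stem-loop: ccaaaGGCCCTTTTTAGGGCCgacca

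HIST3H2A stem-loop: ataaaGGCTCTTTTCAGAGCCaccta

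The annotated HIST2H2BE transcript does not end there. It runs on for 1729 bases and closes with a poly(A) signal, AATAAA, shown in capitals, and the 1654-base transcript of HIST1H2AC runs on for 1114 bases and does the same.

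HIST2H2BE poly(A) signal: tattgttattAATAAAgttaccaatt

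HIST1H2AC poly(A) signal: ggcatgaggtAATAAAaggtaatgc

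HIST1H3G poly(A) signal: ataatagtttAATAAAacctatgttc

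Among the 96 transcripts, 31 from 23 genes ran on past the stem-loop by more than 50 bases, 10 ended within 50 bases of it, 34 held only the coding sequence and 21 had no stem-loop in another form. AATAAA or ATTAAA stood in the last 40 bases of 18 of the 31 run-on transcripts and of 4 of the 10 that end at the stem-loop, against 42.9% of the protein-coding transcripts of other genes. Run-on transcripts took 54.9% of all member counts, coding-sequence-only ones 19.2%, those ending at the stem-loop 14.3% and the others 11.5%.

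Start regions of 64 members were found in RefSeq (GRCh38.p14; 250 bases before to 50 after the start), and 4 motifs were searched on both strands. The octamer ATTTGCAT, the element that OCT1 binds at H2B genes, was in 13 of 17 H2B and 11 of 16 H2A start regions, in no H1, H3 or H4 region and in 1.77% of 35116 regions of all genes. CCAAT was in 84.4% of the members' regions, against 34.6% of all, and TATAAA in 67.2%, against 11.5%. The H1 box AAACACA was in all 6 H1 regions, against 5.64% of all. CCAAT was in 3 of 13 H4 regions and in every H1, H2A, H2B and H3 region. A TATAAA and an AAACACA can share bases. Of the 18 members that were higher in H1047R cells in at least 1 treatment (described below), 8 had the octamer, as did 16 of the other 46. Start regions of facing H2A and H2B genes overlap, as described below, so that 1 match can be counted for both genes.

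The upstream regions of 3 members are printed, all from RefSeq GRCh38.p14: that of HIST1H2BK, the member with the highest level per length (at the first of its annotated starts), that of HIST1H1C, the leading H1 gene, and the stretch that HIST2H2BE shares with HIST2H2AC, the pair of neighbours described further on. Capitals mark every match to the 4 motifs on either strand.

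HIST1H2BK, chr6:27146859-27147108, minus strand: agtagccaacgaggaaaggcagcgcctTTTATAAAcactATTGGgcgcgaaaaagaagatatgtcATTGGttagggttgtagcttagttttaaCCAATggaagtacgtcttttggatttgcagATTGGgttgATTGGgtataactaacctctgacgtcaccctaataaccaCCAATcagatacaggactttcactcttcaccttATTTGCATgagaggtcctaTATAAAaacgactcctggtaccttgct

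HIST1H1C, chr6:26056471-26056720, minus strand: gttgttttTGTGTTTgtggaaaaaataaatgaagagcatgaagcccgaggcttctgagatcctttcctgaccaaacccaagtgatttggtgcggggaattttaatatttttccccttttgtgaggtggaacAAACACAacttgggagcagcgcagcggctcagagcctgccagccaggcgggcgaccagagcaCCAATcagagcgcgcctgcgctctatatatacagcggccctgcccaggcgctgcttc

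HIST2H2BE, chr1:149886683-149886932, minus strand: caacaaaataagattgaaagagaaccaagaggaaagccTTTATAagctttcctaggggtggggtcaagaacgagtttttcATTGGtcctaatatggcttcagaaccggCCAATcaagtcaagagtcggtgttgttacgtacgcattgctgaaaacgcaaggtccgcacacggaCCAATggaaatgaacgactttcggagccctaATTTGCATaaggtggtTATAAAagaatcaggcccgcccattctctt

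The HIST2H2BE stretch begins at the other end as the start region of HIST2H2AC, read from the plus strand, and the TTTATA near its left end reads TATAAA towards HIST2H2AC. It is 1 of 11 pairs of members whose start regions overlap on opposite strands, each an H2A gene facing an H2B gene.

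The libraries held 120177015 to 162755457 estimated read pairs, and member genes took 0.0109% to 0.0185% of them. Basal mammary markers summed to 11530 to 14570 CPM (counts scaled to the library total), with KRT5 alone at a mean of 3669 CPM. Of the markers of other cells, those of blood summed to 14.9 to 21.4 CPM, nearly all of it CD68, with HBB at 0 in every library, and those of endothelium to 1.15 to 2.97 CPM. Fibroblast markers summed to 141 to 179 CPM in H1047R cells under BYL719 and 76.0 to 78.4 CPM in H1047R cells in DMSO, against 34.7 to 37.7 and 28.4 to 30.1 CPM in parental cells, most of the difference being DCN. Of the 10 basal markers, 1 was higher in H1047R cells in DMSO (KRT14, log2 fold change 2.37) and 7 were lower (among them TP63 at -1.48 and CDH1 at -1.11), and under BYL719 1 was higher and 6 were lower. The part of the basal and fibroblast markers in the results was not tested. PIK3CA averaged 70.5 ± 1.55 CPM in H1047R cells under BYL719 and 40.2 ± 5.90 CPM in H1047R cells in DMSO, against 69.02 ± 2.81 and 57.8 ± 1.69 CPM in parental cells under BYL719 and in DMSO (SD, n = 3 each), which says nothing of the base change itself. H1047R DMSO replicate 2 stood apart from both its replicates, at a chi-square per degree of freedom of 150.1 and 131. All other pairs within groups gave 4.31 to 47.1. Without that library 15 members were called higher and 3 lower between the DMSO-treated lines. Between the BYL719-treated lines 17 were called higher and 1 lower without it. The shares of all genes called in that fit are not given.

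The number of reads was unevenly spread over the members. The 5 members with most counts held 48.6% of all member counts, the 20 with most held 88.6%, 25 members averaged 1 CPM or more, 45 averaged less, and 4 had no count in any library. In TPM, the authors' length-scaled unit, HIST1H2BK was first with a mean of 127 TPM over the 12 libraries. HIST2H2AA4 followed at 55.9, HIST2H4A at 33.0, HIST1H4J at 25.8 and HIST3H2A at 19.4 TPM. HIST1H2BK's only listed transcript is its coding sequence of 381 bases, so its TPM rests on that short length. The 3 leading members of each remaining class were HIST1H1C, HIST1H1E and HIST1H1B for H1, and HIST2H3PS2, HIST2H3C and HIST1H3B for H3; the H1 and H3 leaders stood at 16.2 and 7.37 TPM.

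The first comparison asked how the mutant line differs from its parent without inhibitor. Summed over all members, histone RNA was 166, 160 and 161 CPM in H1047R cells in DMSO, against 112, 112 and 138 CPM in parental cells in DMSO. In CPM all H1047R libraries lay above all parental ones. In TPM the sums were 516, 417 and 475 in H1047R cells and 356, 344 and 454 in parental cells, both in DMSO. There parental replicate 3 lay above H1047R replicate 2. The log2 fold change of the sum was 0.45 (SE 0.09, edgeR adjusted p = 0.00173). Under BYL719 the sums were 171, 178 and 185 CPM in H1047R cells, against 117, 109 and 133 CPM in parental cells, a log2 fold change of 0.60 (SE 0.09, edgeR adjusted p = 0.000281). Under BYL719 no library of one line reached those of the other, in CPM or in TPM.

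**Figure D1:**
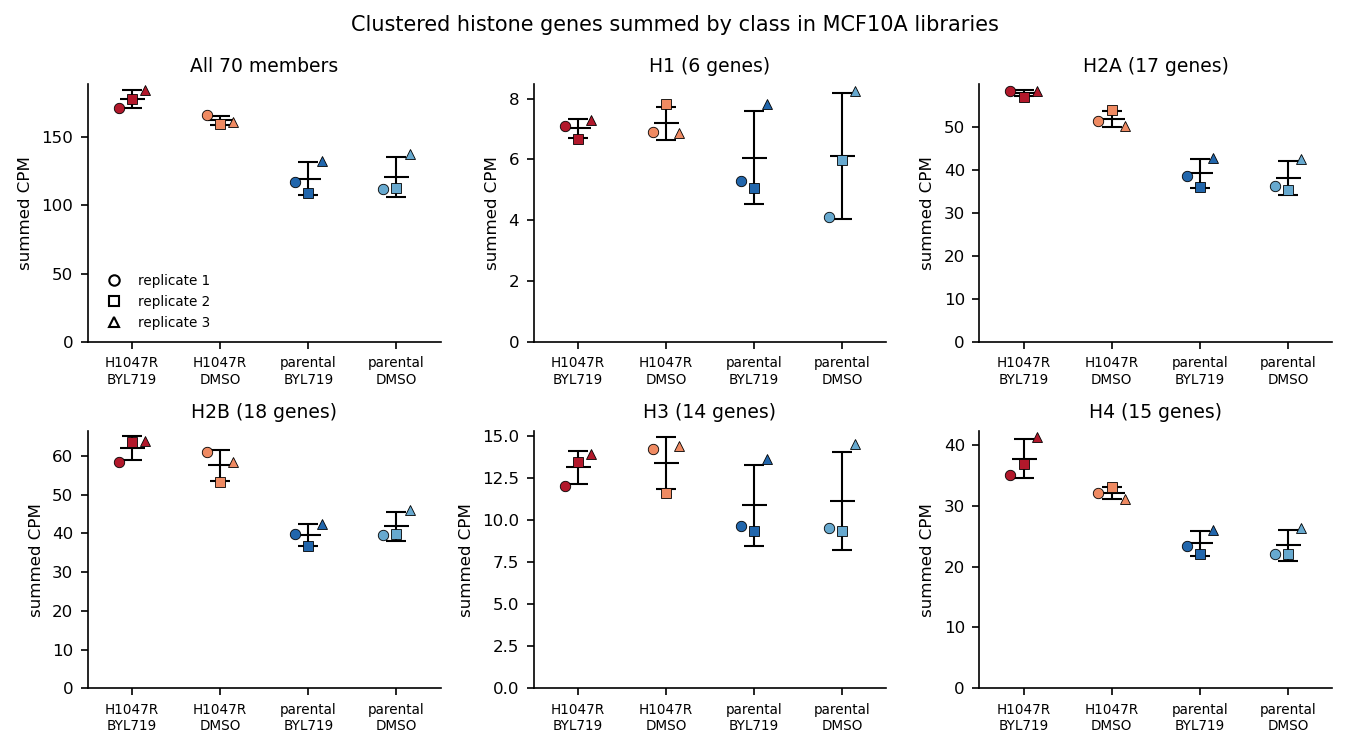
Summed CPM of all 70 members and of each histone class in every library, with the group mean and SD as bars; axes start at 0. The H1047R libraries lie above the parental ones for the total, H2A, H2B and H4, while parental replicate 3 reaches the H1047R values for H1 and H3.

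By class, the sums of the core histones H2A, H2B and H4 rose in H1047R cells in both treatments, while those of H1 and H3 did not pass the test. H2A summed to 51.9 ± 1.86 CPM in H1047R cells and 38.1 ± 4.00 CPM in parental cells in DMSO (SD, n = 3 each), a log2 fold change of 0.47 (edgeR adjusted p = 0.000732), which was 0.33 with effective-length offsets, a correction for the estimated transcript lengths (edgeR adjusted p = 0.0665). H2B summed to 57.6 ± 3.96 CPM in H1047R cells and 41.8 ± 3.67 CPM in parental cells in DMSO, a log2 fold change of 0.49 (edgeR adjusted p = 0.000359). H4 summed to 32.2 ± 0.983 CPM in H1047R cells and 23.5 ± 2.47 CPM in parental cells in DMSO, a log2 fold change of 0.48 (edgeR adjusted p = 0.00137). The H4 log2 fold change in DMSO was 0.05 without HIST2H4A, 0.06 over protein-coding transcripts alone and 0.16 with effective-length offsets (edgeR adjusted p = 0.764, 0.782 and 0.423). The sum without HIST2H4A keeps its near-identical copy HIST2H4B, and so takes in how reads were divided between those copies. Under BYL719 the log2 fold changes were 0.59 for H2A, 0.67 for H2B and 0.69 for H4, and that of H4 was 0.36 over protein-coding transcripts and 0.34 with effective-length offsets (edgeR adjusted p = 0.0853 and 0.121).

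H1 and H3 gave wider intervals. The log2 fold change of the H1 sum between the lines in DMSO was 0.27 (95% interval -0.16 to 0.69) and that of H3 was 0.29 (-0.06 to 0.64), so a rise as large as that of the other classes lies within both. In H3 the sums were 14.2, 11.6 and 14.4 CPM in H1047R cells and 9.53, 9.37 and 14.5 CPM in parental cells, all in DMSO. Parental replicate 3 alone stood at the H1047R level, and without it the H3 log2 fold change was 0.54 (edgeR adjusted p = 0.0214). In H1 the sums were 6.89, 7.81 and 6.86 CPM in H1047R cells and 4.10, 5.97 and 8.25 CPM in parental cells, all in DMSO. Parental replicate 3 was the highest. HIST1H1C carried the H1 sum: without that gene the log2 fold change in DMSO was -0.73 (edgeR adjusted p = 0.342). No fit left out both HIST1H1C and parental replicate 3.

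At the level of single genes, 60 members had enough counts to be tested. In DMSO, 15 of the 60 were higher in H1047R cells (25%, against 17.0% of the 21079 genes tested) and 3 were lower (5%, against 17.2%). Under BYL719, 16 were higher (26.7%, against 11.4%) and 2 were lower (3.33%, against 10.9%). Of these, 13 were higher in both treatments (13 of the 15 and 13 of the 16), and HIST1H1D was lower in both. The share of all genes called in both treatments is not given. The 2 comparisons use different libraries, but the same pair of lines. The median log2 fold change over the 60 was -0.01 in DMSO and 0.01 under BYL719, against 0.0049 and 0.013 over all genes tested. With all libraries kept, the sums thus follow a subset of well-expressed members and not the median member. Without parental replicate 3 the median of the members under 1 CPM turned positive in each treatment, as described below. The median over the 60 without that library is not given.

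All members called higher averaged 1 CPM or more. Of the 25 members at that level, 15 were higher in H1047R cells in DMSO (60%, against 17.0% of all genes tested). None was lower there (against 17.2%), and the median log2 fold change was 0.53. Under BYL719 16 of the 25 were higher (64%, against 11.4%) and none was lower (against 10.9%), with a median of 0.55. The share called among all genes averaging 1 CPM or more is not given. Of the 35 tested members under 1 CPM, none was higher in either treatment (against 17.0% and 11.4%). In DMSO 3 were lower (8.57%, against 17.2%) and under BYL719 2 were lower (5.71%, against 10.9%), with medians of -0.37 and -0.39. Few reads limit what can be called in that second group, and the split at 1 CPM was chosen after the data were seen.

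**Figure D2:**
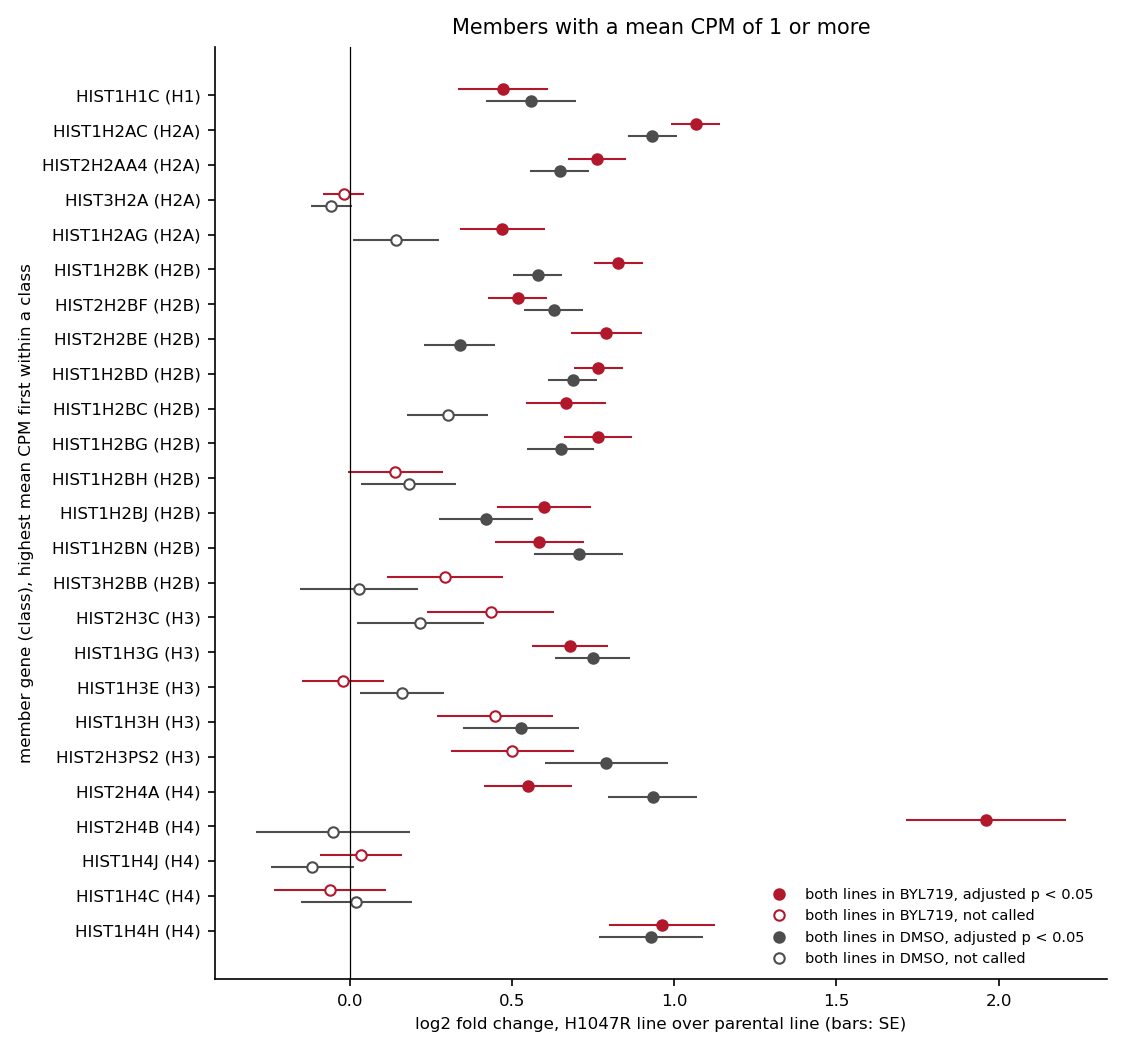
Log2 fold change of H1047R over parental cells with its SE for the 25 members that averaged 1 CPM or more, ordered by class; filled points passed an edgeR adjusted p of 0.05. Of the 25 members, 22 lie to the right of 0 in each treatment. Those left of 0 are HIST1H3E, HIST1H4C and HIST3H2A under BYL719 and HIST1H4J, HIST2H4B and HIST3H2A in DMSO.

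Among linker histone genes, HIST1H1C was the only one of the 5 tested to rise. It had 5.82, 6.93 and 5.46 CPM in H1047R cells, against 3.34, 4.29 and 5.00 CPM in parental cells, both in DMSO. The H1047R libraries lay above the parental ones by a small margin, with a log2 fold change of 0.56 (SE 0.14, edgeR adjusted p = 0.00776). That call was lost with only the groups compared (edgeR adjusted p = 0.0539). Under BYL719 the gene was also called higher, with a log2 fold change of 0.47. This second call was lost in 5 of 20 alternatives, each leaving out 1 of the libraries compared (edgeR adjusted p up to 0.0931). HIST1H1D, another linker histone gene, fell. It had 2, 4 and 2 counts in the H1047R DMSO libraries and 3, 6 and 3 under BYL719, against 10, 30 and 67 counts in the parental DMSO libraries and 21, 11 and 52 under BYL719. The groups did not overlap, at low depth, and parental replicate 3 was highest in each treatment. The log2 fold change was -3.67 (SE 0.89) in DMSO and -2.81 (SE 0.85) under BYL719 (edgeR adjusted p = 0.00699 and 0.0315). The second was lost in 6 of 20 alternatives, 5 of which leave out 1 of the libraries compared, with edgeR adjusted p-values up to 0.155 (without parental BYL719 replicate 3).

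HIST1H2AC had the largest rise among the H2A genes called; HIST2H2AA3, a low-level gene, gave a larger log2 fold change of 1.87 in DMSO that did not pass the test. It stood at 19.2, 19.4 and 18.2 CPM in H1047R cells in DMSO, against 10.1, 9.61 and 10.7 CPM in parental cells in DMSO. Under BYL719 it stood at 21.2, 20.7 and 20.0 CPM in H1047R cells, against 9.38, 9.45 and 11.2 CPM in parental cells. Every H1047R library thus held well above the highest parental one. The log2 fold changes were 0.93 (SE 0.08, edgeR adjusted p = 1.52e-06) in DMSO and 1.07 (SE 0.08, edgeR adjusted p = 5.45e-07) under BYL719. Over protein-coding transcripts alone, the difference in DMSO was not called (edgeR adjusted p = 0.181).

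HIST2H2AA4, the H2A gene with the highest TPM, had 17.2, 18.7 and 17.1 CPM in H1047R cells, against 11.0, 10.5 and 13.0 CPM in parental cells, in DMSO. Its log2 fold change was 0.65 (SE 0.09) in DMSO and 0.76 (SE 0.09) under BYL719. It shares a run of 549 bases with HIST2H2AA3, which drew at most 8.78% of the pair's counts in any library; the pair summed gave 0.66 and 0.79. HIST2H2AC went the other way in DMSO, with 0.568, 0.781 and 0.808 CPM in H1047R cells, against 1.12, 1.16 and 1.5 CPM in parental cells. That drop of a low-level gene (log2 fold change -0.78, edgeR adjusted p = 0.0359) was not called under BYL719. In DMSO it was lost without H1047R replicate 1 and without each of the parental replicates, with edgeR adjusted p-values up to 0.134. HIST3H2A, the H2A gene with the second highest TPM, did not pass the test between the lines, with log2 fold changes of -0.06 in DMSO and -0.02 under BYL719.

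H2B had the most members called. In H1047R cells 7 of 16 tested H2B genes were higher (43.8%, against 17.0% of all genes tested) and 1 was lower (6.25%, against 17.2%) in DMSO, and 8 were higher (50%, against 11.4%) and none was lower (against 10.9%) under BYL719. HIST1H2BK had 20.1, 17.3 and 19.0 CPM in H1047R cells, against 12.4, 12.1 and 13.9 CPM in parental cells, in DMSO, a log2 fold change of 0.58 (SE 0.07, edgeR adjusted p = 7.68e-05). Under BYL719 its H1047R libraries held 18.9 to 21.1 CPM and its parental libraries 10.8 to 12.2 CPM. HIST1H2BD had 6.17, 5.75 and 5.89 CPM in H1047R cells, against 3.71, 3.54 and 4.02 CPM in parental cells, in DMSO. HIST1H2BG, HIST1H2BN and HIST2H2BF gave log2 fold changes of 0.65, 0.71 and 0.63 in DMSO, and 0.76, 0.58 and 0.52 under BYL719. In each of these genes the line difference was called in both treatments and under every alternative that was run. HIST1H2BO, at 0.189, 0.191 and 0.123 CPM in H1047R cells, against 0.270, 0.289 and 0.383 CPM in parental cells, was the H2B gene that fell in DMSO, a call lost in 3 of 20 alternatives.

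In H3, HIST1H3G was the member called in both treatments. It had 3.65, 3.47 and 3.46 CPM in H1047R cells, against 1.92, 2.07 and 2.44 CPM in parental cells, in DMSO, a log2 fold change of 0.75 (SE 0.12, edgeR adjusted p = 0.000324), and 0.68 under BYL719. HIST2H3PS2, the H3 member with the highest TPM, had 1.60, 0.912 and 1.51 CPM in H1047R cells, against 0.771, 0.844 and 0.748 CPM in parental cells, in DMSO; H1047R replicate 2 lay close to the parental values. HIST1H3H rose in DMSO by 0.53 on the log2 scale, with edgeR adjusted p-values up to 0.128 when single libraries were left out. HIST1H3C fell under BYL719, with 0.147, 0.0991 and 0.0491 CPM in H1047R cells, against 0.266, 0.186 and 0.538 CPM in parental cells (edgeR adjusted p = 0.0495), and lost the call in 10 of 20 alternatives.

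In H4, HIST1H4H stood at 2.05, 1.94 and 2.02 CPM in H1047R cells, against 0.995, 0.926 and 1.30 CPM in parental cells, in DMSO, a log2 fold change of 0.93 (SE 0.16, edgeR adjusted p = 0.000771). Over protein-coding transcripts alone that log2 fold change was -0.41, and with effective-length offsets it was 0.06 (edgeR adjusted p = 0.427 and 0.903). The gene was also called higher under BYL719, a call lost over protein-coding transcripts and with effective-length offsets (edgeR adjusted p = 0.815 and 0.403). HIST1H4J and HIST1H4C, next to HIST2H4A in TPM among H4 members, gave log2 fold changes of -0.11 and 0.02 in DMSO and 0.04 and -0.06 under BYL719.

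HIST2H4A and HIST2H4B cannot be kept apart by their reads, since their transcripts share a run of 1547 bases. HIST2H4A had 16.5, 21.2 and 16.9 CPM in H1047R cells in DMSO, against 8.71, 8.65 and 11.8 CPM in parental cells in DMSO. HIST2H4B had 9.13, 10.2 and 11.5 CPM in H1047R cells under BYL719 and 6.53, 2.92 and 5.98 CPM in H1047R cells in DMSO, against 2.17, 3.27 and 2.62 CPM and 5.70, 6.10 and 4.45 CPM in parental cells under BYL719 and in DMSO. HIST2H4B alone was thus higher under BYL719 than in DMSO in every H1047R library and lower in every parental library. The share of the pair's counts that was given to HIST2H4B ran from 12.1% to 41.4% among libraries. Summed, the pair had 26.6, 28.3 and 30.7 CPM in H1047R cells under BYL719 and 23.0, 24.1 and 22.8 CPM in H1047R cells in DMSO, against 15.0, 14.7 and 16.5 CPM and 14.4, 14.8 and 16.2 CPM in parental cells under BYL719 and in DMSO. The libraries of the 2 lines did not overlap. The log2 fold change of the summed pair between the lines was 0.65 (SE 0.07, edgeR adjusted p = 2.46e-05) in DMSO. Under BYL719 it was 0.92 (SE 0.07, edgeR adjusted p = 1.42e-06). The summed pair was fitted under the main settings alone. Over protein-coding transcripts HIST2H4A lost its call in DMSO and HIST2H4B its call under BYL719 (edgeR adjusted p = 0.105 and 0.586). HIST2H4A kept its call under BYL719 there.

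**Figure D3:**
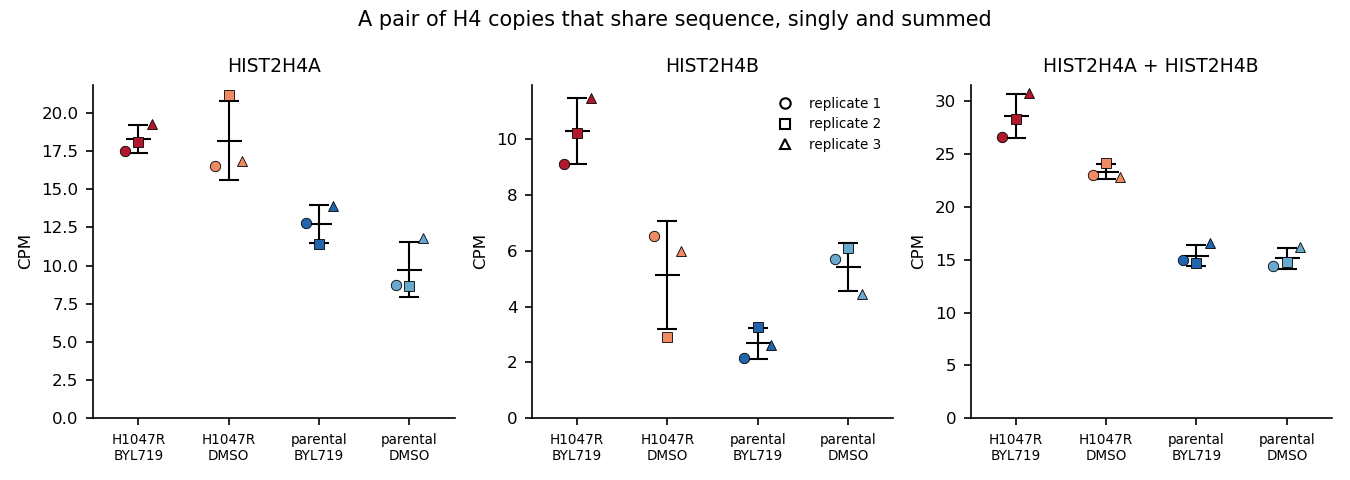
CPM of HIST2H4A, of HIST2H4B and of their sum in every library, with the group mean and SD as bars; axes start at 0. HIST2H4B alone orders the groups differently from HIST2H4A, while the sum sets the H1047R libraries, from 22.8 to 30.7 CPM, above the parental ones, from 14.4 to 16.5 CPM.

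By cluster, the HIST1 sum was higher in H1047R cells by 0.46 (SE 0.11) on the log2 scale in DMSO and the HIST2 sum by 0.55 (SE 0.08) (edgeR adjusted p = 0.00687 and 0.000165). The HIST3 sum gave -0.05 (95% interval -0.17 to 0.08) and HIST4H4 -0.20 (-0.54 to 0.15). Under BYL719 the values were 0.59 for HIST1, 0.74 for HIST2, 0.01 for HIST3 and 0.22 for HIST4H4. The difference between clusters was not itself tested. Of the 11 pairs of neighbours that face each other over a shared start region, 9 had both genes tested, and whether facing genes changed alike was not tested. In DMSO 1 pair was called in opposite directions and none in the same one, and under BYL719 2 pairs were called higher in both genes and none in opposite directions. HIST2H2BE rose by 0.34 in DMSO and 0.79 under BYL719 on the log2 scale, while HIST2H2AC, across the sequence printed above, gave -0.78 and -0.44, the second not called. The HIST2H2BE call in DMSO was lost in 4 of 20 alternatives, 3 of which leave out 1 library (H1047R replicate 1, parental replicate 1 or parental replicate 2), with edgeR adjusted p-values up to 0.113. HIST1H2AC and HIST1H2BC, another facing pair, gave 0.93 and 0.30 in DMSO, the second not called, and 1.07 and 0.67 under BYL719. HIST1H2AG and HIST1H2BJ gave 0.14, not called, and 0.42 in DMSO, and 0.47 and 0.60 under BYL719; 4 of 20 alternatives lost the HIST1H2AG call under BYL719 and 10 of 20 the HIST1H2BJ call in DMSO.

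Calls were counted by annotated transcript end; whether the forms differed was not tested. Of the 23 members with a run-on transcript, all were tested; 9 were higher in H1047R cells in DMSO (39.1%, against 17.0% of all genes) and 11 under BYL719 (47.8%, against 11.4%), and none was lower. Of the 6 tested members that end at the stem-loop, 2 were higher in each treatment (33.3%), and of the 5 in another form without a stem-loop 1 was (20%); none of these was lower. Of the 25 tested members listed with a coding sequence alone, 3 were higher (12%) and 3 lower (12%, against 17.2%) in DMSO, and 2 were higher (8%) and 2 lower (8%, against 10.9%) under BYL719. Level went with the same split, since most run-on members averaged over 1 CPM and most of the others under it.

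Counts summed by transcript end gave log2 fold changes in DMSO of 0.50 (SE 0.07) for run-on transcripts, 0.42 (SE 0.11) for those ending at the stem-loop and 0.54 (SE 0.08) for other forms without a stem-loop, all called, and 0.31 (SE 0.15) for coding sequences alone, not called (edgeR adjusted p = 0.117). Without parental replicate 3 that last value was 0.54 (edgeR adjusted p = 0.00327). The call for those ending at the stem-loop was lost without H1047R DMSO replicate 2, without parental DMSO replicate 2, with effective-length offsets and with only the groups compared (edgeR adjusted p up to 0.0866). Under BYL719 the values were 0.63 for run-on transcripts, 0.61 for those ending at the stem-loop, 0.63 for other forms and 0.49 for coding sequences alone, all called. That of coding sequences was lost in 6 fits that leave out 1 library, namely each H1047R BYL719 replicate, H1047R DMSO replicate 2 and parental BYL719 replicates 1 and 2, and with no low-count filter (edgeR adjusted p up to 0.132).

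**Figure D4:**
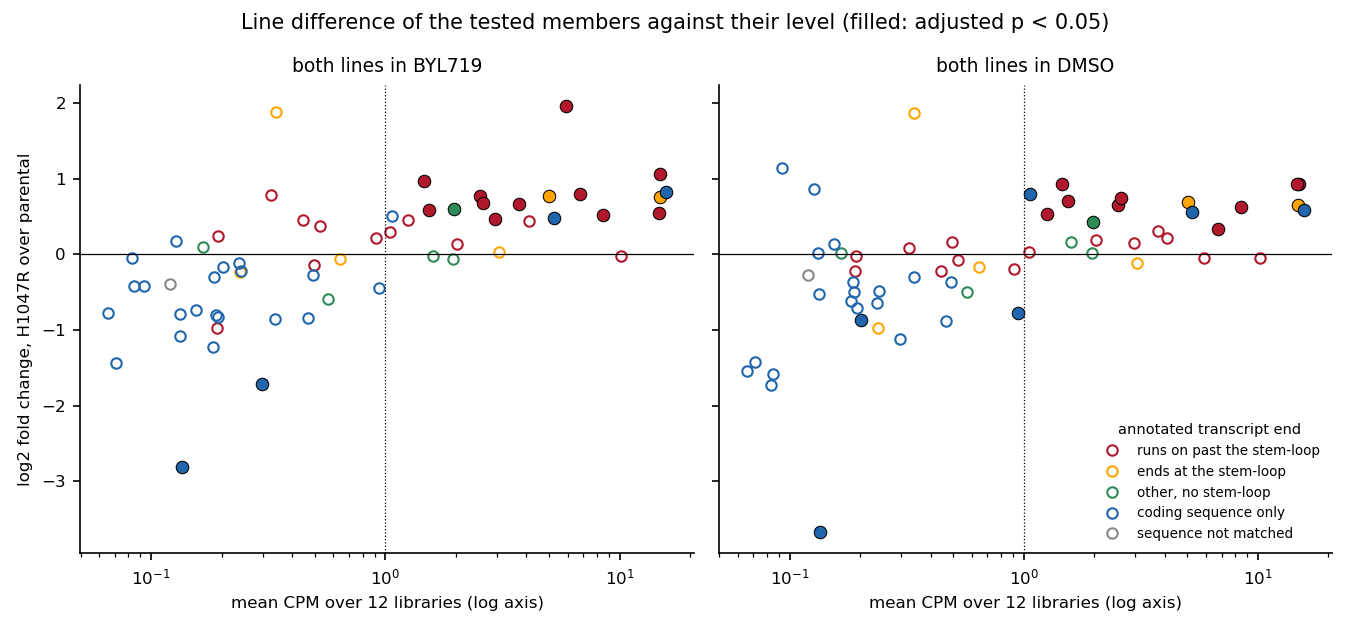
Log2 fold change of H1047R over parental cells against mean CPM over the 12 libraries (log axis) for the 60 tested members, coloured by annotated transcript end; filled points passed an edgeR adjusted p of 0.05 and the dotted line marks 1 CPM. Points called higher all lie right of 1 CPM and most carry run-on transcripts; those called lower lie left of it.

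Parental replicate 3 stood apart among low members in both treatments. The 45 members under 1 CPM summed to 10.6, 7.70 and 9.13 CPM in H1047R cells under BYL719 and 9.62, 8.94 and 8.94 CPM in H1047R cells in DMSO, against 8.18, 7.10 and 16.3 CPM and 7.88, 9.85 and 19.3 CPM in parental cells under BYL719 and in DMSO. Only replicate 3 of each parental group was high. RNAs of other kinds that are made without a poly(A) tail, 22 genes such as RN7SL1, RN7SK and RMRP, did likewise: they summed to 80.1, 64.4 and 83.8 CPM and 123, 76.9 and 102 CPM in H1047R cells under BYL719 and in DMSO, against 74.3, 96.9 and 201 CPM and 84.9, 85.9 and 210 CPM in parental cells. Of the 22, 9 had enough counts to be tested and none was called by edgeR between the lines in either treatment (at an unadjusted p under 0.05, 1 was higher in DMSO and 1 lower under BYL719). The part of these RNAs in the histone results was not tested. Without parental DMSO replicate 3 the median log2 fold change of the 35 tested low members was 0.15 in DMSO, in place of -0.37, and without parental BYL719 replicate 3 it was 0.26 under BYL719, in place of -0.39. The median of the 25 higher members was 0.65 in both cases.

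**Figure D5:**
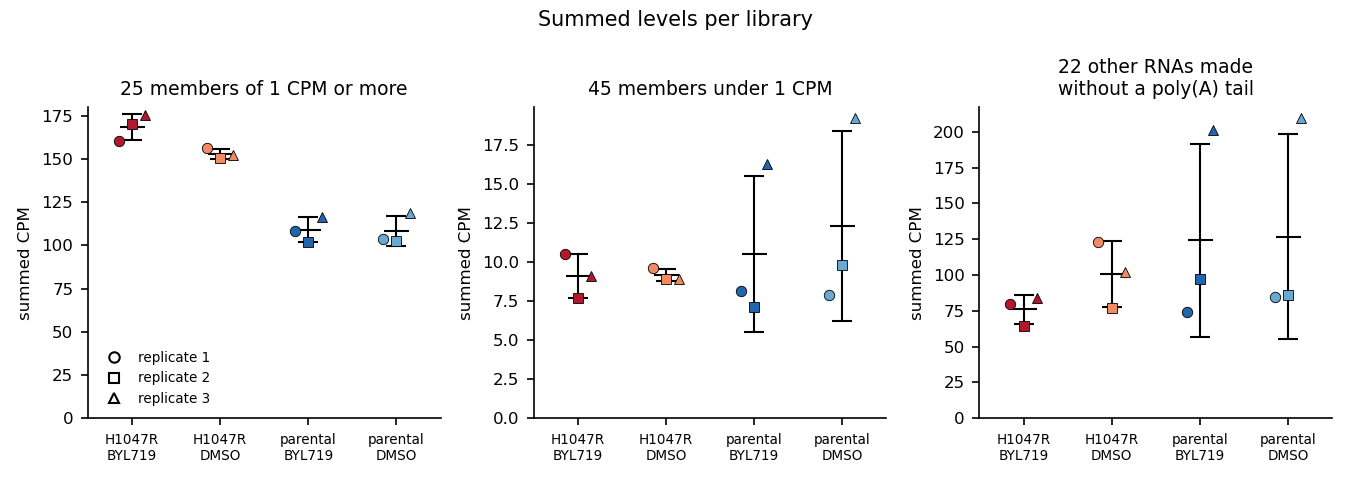
Summed CPM per library of the members averaging 1 CPM or more, of those under 1 CPM and of 22 other RNAs made without a poly(A) tail, with the group mean and SD as bars; axes start at 0. Parental replicate 3 lies far above its group in the middle and right panels, at 16.3 and 19.3 CPM and at 201 and 210 CPM, and less so in the left panel.

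The next comparisons asked what 4 h of BYL719 did within each line. In parental cells no member was called (0 higher and 0 lower, against 0.844% and 0.588% of all genes tested). At an unadjusted p under 0.05 edgeR gave 3 higher and 3 lower, and DESeq2 called 2 higher and 1 lower. The shares of all genes at that unadjusted p or by DESeq2 are not given. The total was 117, 109 and 133 CPM under BYL719 and 112, 112 and 138 CPM in DMSO, a log2 fold change of -0.02 (95% interval -0.19 to 0.15).

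In H1047R cells 4 members rose under BYL719 (6.67%, against 15.1% of all genes tested) and 1 fell (1.67%, against 13.2%). HIST2H2BE, which encodes an H2B, had 9.05, 9.11 and 9.50 CPM under BYL719, against 7.91, 6.19 and 6.68 CPM in DMSO. Its treated libraries lay above the untreated ones, with a log2 fold change of 0.41 (SE 0.11, edgeR adjusted p = 0.0147; 0.0529 without H1047R BYL719 replicate 3). HIST3H2A had 10.5, 11.3 and 10.8 CPM under BYL719, against 8.77, 9.47 and 9.0 CPM in DMSO, a log2 fold change of 0.25 (SE 0.06, edgeR adjusted p = 0.0113). That call was lost without H1047R DMSO replicate 1, with no low-count filter and with only the groups compared, with edgeR adjusted p-values up to 0.0743. In parental cells the same gene had 11.9, 10.8 and 10.9 CPM under BYL719, against 10.0, 9.32 and 9.53 CPM in DMSO, a log2 fold change of 0.21 (edgeR adjusted p = 0.15). HIST1H2AG rose by 0.40 and lost the call in 11 of 20 alternatives. HIST2H4B rose by 1.00, but summed with HIST2H4A the pair rose by 0.29 (SE 0.07, edgeR adjusted p = 0.0113). HIST1H1A, at 16, 7 and 12 counts under BYL719, against 30, 21 and 29 counts in DMSO, fell by 1.23 on the log2 scale (edgeR adjusted p = 0.048) and lost the call in 9 of 20 alternatives.

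The total in H1047R cells was 178 ± 6.70 CPM under BYL719 and 162 ± 3.25 CPM in DMSO (SD, n = 3 each), a log2 fold change of 0.13 (95% interval -0.05 to 0.30), which did not pass the test. Class sums gave 0.15 for H2A, 0.10 for H2B and 0.23 for H4, and -0.04 for H1 and -0.03 for H3, none of them called. The HIST3 sum, most of it HIST3H2A, rose by 0.26 (SE 0.06, edgeR adjusted p = 0.00814). In parental cells the HIST3 sum gave 0.20 (SE 0.06, edgeR adjusted p = 0.168). 

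The interaction, which is the BYL719 effect in H1047R cells minus that in parental cells, was called for 1 member (1.67%, against 2.08% of all genes tested for higher) and none was lower (against 0.797%). Shares of all genes at an unadjusted p or by DESeq2 are again not given. At an unadjusted p under 0.05 edgeR gave 3 and 0, and DESeq2 called the same number as edgeR, 1. The member was HIST2H4B, with 2.01 (SE 0.34, edgeR adjusted p = 0.00889), while the pair HIST2H4A and HIST2H4B summed gave 0.27 (SE 0.10, edgeR adjusted p = 0.212). For the total it was 0.15 (95% interval -0.10 to 0.39).

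Genes that make or use histone RNA were set beside the members. The counts in these lists stand against 17.0% higher and 17.2% lower of all genes tested between the DMSO-treated lines, 15.1% and 13.2% with BYL719 in H1047R cells, 0.844% and 0.588% with BYL719 in parental cells, and 11.4% and 10.9% between the BYL719-treated lines. SLBP, which binds the stem-loop, did not pass the test between the lines in DMSO (log2 fold change 0.05, edgeR adjusted p = 0.683) and fell under BYL719 in H1047R cells, to 84.3 ± 6.80 CPM, against 108 ± 13.7 CPM in DMSO (SD, n = 3 each; log2 fold change -0.36, edgeR adjusted p = 0.00798). NPAT, the coactivator of the clusters, gave -0.23 between the lines in DMSO (edgeR adjusted p = 0.111) and rose under BYL719 in H1047R cells by 0.35 (edgeR adjusted p = 0.0251). In both genes H1047R DMSO replicate 2 was the library farthest from its group, at 124 CPM for SLBP and 18.9 CPM for NPAT. Of the 21 genes for histone mRNA synthesis and processing, 6 were higher and 3 lower in H1047R cells in DMSO, led among the higher ones by LSM10, a subunit of the U7 particle that processes histone pre-mRNA, and NCBP2, of the cap-binding complex. With BYL719 in H1047R cells 5 of the 21 rose and 8 fell. TUT7, an enzyme that adds uridines to RNA ends, rose by 1.10 in that comparison.

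Of 29 genes of G1/S and S phase, 7 were higher and 8 lower in H1047R cells in DMSO, with a median log2 fold change of -0.05; TYMS and FEN1 led the first and MCM5 and MCM6, of the replicative helicase, the second. With BYL719 in H1047R cells none rose and 15 fell, CDC25A, a phosphatase that opens S phase, by 0.77 and FEN1 by 0.52. In parental cells 2 fell, CDC25A and CDC6 (log2 fold changes -0.30 and -0.19, edgeR adjusted p = 0.028 and 0.0478), but no gene of the lists was called there with the replicate block, with effective-length offsets or when any 1 parental library was left out. Between the BYL719-treated lines 1 was higher and 13 were lower, while 16 histone members were higher. Of 18 genes of G2 and mitosis, 2 were higher and 1 lower between the DMSO-treated lines, and 5 rose and 3 fell with BYL719 in H1047R cells.

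Of 12 histone genes listed as replication-independent, which carry no HIST1 to HIST4 symbol and mostly make polyadenylated mRNA, 11 were tested. In DMSO H2AFX was higher in H1047R cells, by 0.27 on the log2 scale, and H2AFY2, H1F0, H1FX and H2AFY were lower. H2AFY2, which encodes a macroH2A, averaged 14.0 ± 0.629 CPM in H1047R cells and 27.7 ± 0.454 CPM in parental cells (SD, n = 3 each). With BYL719 in H1047R cells H1F0 rose, by 0.16, and H2AFX, H3F3B and H2AFY2 fell. Of 24 histone chaperones, 3 were higher and 2 lower in H1047R cells in DMSO, led by ASF1A for the higher (0.39) and RBBP7 for the lower (-0.47), and with BYL719 in H1047R cells 2 rose and 6 fell.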

How the data were processed

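RNA from 12 MCF10A libraries was sequenced as paired reads of 150 bases. The authors named Trim Galore 0.6.1, cutadapt, Salmon 1.2.1 and DESeq2 1.28.1 with GRCh38, per the submitters' processing notes; the sources used do not give RNA selection, strandedness or the annotation release. The deposited tables list 207749 transcripts with expected counts and TPM, as estimated by the authors, and the effective length of each transcript. Reads shared by near-identical copies were divided by that estimate, whose error the tests do not see.

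Expected counts were summed per gene, histone class, transcript end or cluster, and rounded. CPM were scaled by the library total; TPM, used to compare genes, were summed over transcripts. The 12 libraries were fitted together by group with edgeR 4.0.16 (quasi-likelihood, robust, TMM, filterByExpr, 8 residual degrees of freedom) in R 4.3.3, and two-sided p-values were adjusted by Benjamini-Hochberg over all 21079 genes tested; SEs and 95% intervals are on the log2 scale. Sums were tested in the same table with their members replaced. Levels are mean ± SD over n = 3. The fit was tested on simulated data. DESeq2 1.42.0, other scalings, filters and transcript sets, a replicate block and leaving out each library were alternatives. Sums by transcript end, by cluster and of near-identical copies were added after the data were seen. Those by cluster and of copies were fitted under the main settings alone.

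Named members are those called, up to 8 per direction and comparison, and the 3 with the highest TPM per class; other genes come from lists, up to 4 called per direction and comparison, with SLBP, NPAT and PIK3CA always given. Members and lists were chosen with earlier results of these data known. The labels name no source shared by libraries of the same replicate number, so the main fit has no block. Mouse libraries of the series were not used.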

Additional observations from a re-analysis of the deposited data

Results flagged for a closer look

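The BYL719 effect differed between the lines for 6 genes of the members and lists, by the edgeR interaction (log2, H1047R minus parental). HIST2H4B gave 2.01, and summed with its copy HIST2H4A it was not called. TUT7, which adds uridines to RNA ends, gave 0.81. The G1/S genes CDC25A, GINS1 and CDC6 gave -0.48, -0.36 and -0.25, and AURKA, a mitotic kinase, gave -0.29. H1047R DMSO replicate 2, which stood apart from its group, enters each of these values.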

How the results depend on the processing

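The sum over all members stayed called between the lines under every alternative, with log2 fold changes of 0.40 to 0.57 in DMSO and 0.54 to 0.68 under BYL719 when single libraries were left out. Of 42 calls of named members, 20 held under every alternative and 22 were lost under at least 1; causes were not tested.

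Same-numbered deviations correlated at 0.004 to 0.069, under the 0.1 taken as pairing. Every library matched its own number best within each line, though not between the lines, a hint from the data and not the design. The replicate block used gives both lines the same replicate effects, and no fit with a block within each line was run. With the replicate block 18, 0, 6, 19 and 1 members were called (DMSO lines, BYL719 in parental, BYL719 in H1047R, BYL719 lines, interaction), and of the listed genes 0 with BYL719 in parental cells (3 without the block) and 3 in the interaction (5 without).

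Shares of all genes called under these alternatives, or with the replicate block, are not given. Members called with BYL719 in parental cells (0) were 3 by DESeq2 and 4 with only the groups compared. In H1047R cells (5) they were 8 by DESeq2, 3 with effective-length offsets, 3 with no filter and 2 with only the groups compared. In the interaction (1) they were 0 with no filter, 0 over protein-coding transcripts and 0 with copies summed. With only the groups compared, listed genes called were 24 between the DMSO lines (37), 37 with BYL719 in parental cells (3), 24 in H1047R cells (49) and 50 between the BYL719 lines (27). Listed genes with BYL719 in parental cells were 6 by DESeq2, 0 with length offsets and 1 with no filter. Between the BYL719 lines they were 17 with length offsets, and in the interaction 14 by DESeq2 and 2 with length offsets.

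Without its top member, H1 gave -0.73 between the DMSO lines and -0.81 between the BYL719 lines, and H3 -0.10 in the interaction. H4 without HIST2H4A gave 0.047 between the DMSO lines, -0.31 and 0.48 with BYL719 in parental and H1047R cells and 0.79 in the interaction. Those H4 sums keep HIST2H4B, whose share of the counts of both copies ran from 12.1% to 41.4% among libraries, and so take in that division. H4 without both copies was not fitted. With length offsets H2A gave 0.33 between the DMSO lines and -0.014 with BYL719 in parental cells, H3 -0.0059 in the interaction, and H4 0.16 and 0.34 between the DMSO and BYL719 lines. Over protein-coding transcripts H2A gave -0.0032 and 0.24 with BYL719 in parental and H1047R cells, H4 0.059 and 0.36 between the DMSO and BYL719 lines and -0.021 with BYL719 in parental cells, and HIST1H4H -0.41 between the DMSO lines. The H3 interaction was -0.0053 by DESeq2, -0.0073 with RLE factors and -0.0034 with no filter. Coding-sequence-only transcripts with BYL719 in H1047R cells gave -0.0036 with no filter and -0.010 with only the groups compared, and run-on ones in parental cells -0.0067 with no filter.

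Leaving out 1 library gave 26 to 57 listed genes between the DMSO lines, 0 to 23 with BYL719 in parental cells, 17 to 55 between the BYL719 lines and 3 to 25 in the interaction, and 0 to 3 and 2 to 6 members with BYL719 in parental and H1047R cells. With BYL719 in parental cells the ranges were -0.25 to 0.28 for H1, -0.031 to 0.14 for H2A, -0.14 to 0.0010 for H2B, -0.23 to 0.21 for H3, -0.056 to 0.12 for H4 and -0.10 to 0.10 for the total. In H1047R cells they were -0.089 to 0.024 for H1, -0.13 to 0.013 for H3 and 0.16 to 0.25 for H4. H3 between the DMSO lines gave 0.18 to 0.54, and the interaction -0.32 to 0.20 for H1 and -0.24 to 0.20 for H3. By transcript end, with BYL719 in parental cells, coding sequences gave -0.28 to 0.076, those ending at the stem-loop -0.12 to 0.13 and run-on ones -0.057 to 0.089. Coding sequences gave -0.012 to 0.053 in H1047R cells and -0.053 to 0.31 in the interaction.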
